A study of Homo sapiens with 9 samples.

Results

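The sodium pump and the cation-chloride cotransporters set the sodium, potassium and chloride gradients that a cell's volume depends on, and 6 of their genes were followed here: the pump's beta subunits ATP1B1, ATP1B2 and ATP1B3, and the cotransporters SLC12A2, SLC12A4 and SLC12A7. They were taken by symbol from a fixed list. All 6 were found among the 24462 symbols of the deposited count files, each as 1 entry, and all 6 passed the filter on low counts that left 13676 genes for the tests. The cells were U-373MG, an established human line labelled as glioblastoma and astrocytoma. The 3 groups, of 3 libraries each, were cells given 200 nM of the peptide CBRV1-10493 for 48 h, cells given 200 nM of the peptide NnK-1 for 48 h, and untreated control cells, which served both peptides. Both peptides are synthetic and ShK-like, from jellyfish. The labels record no vehicle for the control cells and no time in culture for them, and the single line limits the data to one tumour background.

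The sodium pump moves sodium out of the cell and potassium in, at the cost of ATP. Its beta subunit carries the catalytic alpha subunit to the plasma membrane and affects how the pump binds potassium. SLC12A2 encodes NKCC1, which brings sodium, potassium and chloride into the cell together, and SLC12A4 and SLC12A7 encode KCC1 and KCC4, which let potassium and chloride out together and are switched on when a cell swells. In astrocytes the pump and NKCC1 are known for the uptake of potassium from the space around neurons, and in glioma cells NKCC1 is known for the volume changes of migration. ShK, the sea anemone toxin after which such peptides are named, blocks a potassium channel, and the genes described here handle the same ion.

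The 250 bases before the annotated start of the 4 members with a mean above 20 CPM (counts scaled to the library total) are shown, since the levels described below rest on these genes. They come from RefSeq on GRCh38.p14, run 5′ to 3′ on the gene's own strand, and have GC boxes (GGGCGG, or CCGCCC on the other strand) in capitals. The windows lie at chr1:169106440-169106689 on the plus strand for ATP1B1, chr3:141876393-141876642 on the plus strand for ATP1B3, chr5:128083516-128083765 on the plus strand for SLC12A2, and chr16:67968695-67968944 on the minus strand for SLC12A4, where the first of 4 listed starts is used.
ATP1B1: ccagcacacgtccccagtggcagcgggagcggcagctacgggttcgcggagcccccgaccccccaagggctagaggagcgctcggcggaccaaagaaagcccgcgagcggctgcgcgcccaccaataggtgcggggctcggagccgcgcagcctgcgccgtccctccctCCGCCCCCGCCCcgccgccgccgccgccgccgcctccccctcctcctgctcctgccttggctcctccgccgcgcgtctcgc
ATP1B3: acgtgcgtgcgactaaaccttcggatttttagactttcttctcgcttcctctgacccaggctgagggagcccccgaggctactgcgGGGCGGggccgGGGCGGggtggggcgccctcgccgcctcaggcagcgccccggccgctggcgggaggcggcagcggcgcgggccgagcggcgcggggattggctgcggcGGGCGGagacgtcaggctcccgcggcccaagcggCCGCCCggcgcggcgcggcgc
SLC12A2: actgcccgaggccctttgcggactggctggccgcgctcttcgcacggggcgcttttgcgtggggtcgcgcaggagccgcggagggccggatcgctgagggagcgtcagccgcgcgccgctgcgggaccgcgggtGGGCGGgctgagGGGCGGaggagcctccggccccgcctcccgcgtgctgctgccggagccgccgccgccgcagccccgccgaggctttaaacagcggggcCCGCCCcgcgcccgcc
SLC12A4: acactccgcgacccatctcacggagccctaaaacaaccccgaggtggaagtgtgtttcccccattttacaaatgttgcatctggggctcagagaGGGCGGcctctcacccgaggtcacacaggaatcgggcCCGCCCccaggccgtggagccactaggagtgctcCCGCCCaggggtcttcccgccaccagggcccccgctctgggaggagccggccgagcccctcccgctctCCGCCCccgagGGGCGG

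ATP1B1 has 35 CpG dinucleotides and 2 GC boxes, ATP1B3 has 39 and 4, SLC12A2 has 40 and 3, and SLC12A4 has 18 and 5. The SLC12A4 counts depend on the start used, since the windows of the other 3 starts have 22 CpG and 8 GC boxes, 2 and 0, and 14 and 0. The window shown has more CpG than 63.2% of all 35116 listed promoters, against 94.2% for ATP1B1, 97.3% for ATP1B3 and 97.8% for SLC12A2. The median over all of them is 11 CpG, and 42.6% of them hold at least 1 GC box on either strand. A TATAAA motif, on either strand, was found in none of the 4 windows and in 10.7% of all promoters. CCAAT, on either strand, is in the ATP1B1 and ATP1B3 windows, as in 32.0% of all promoters. These are matches of letters, not measured sites. In the same RefSeq table the start of SLC12A2 lies 591 bases from that of SLC12A2-DT, which runs the other way.

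The libraries held between 11203094 and 13491075 counts, and 15305 to 15968 symbols had at least 1 read. The glial marker GFAP stood between 19.7 and 28.98 CPM, and 7 of 8 glial and glioma markers had reads. ALDH1L1, an astrocyte marker, had none. Of the markers of other cell types, the summed immune list (4 of 5 genes with reads, CD68 nearly all of it) reached 3.89 to 5.12 CPM with CBRV1-10493, 1.87 to 3.75 CPM with NnK-1 and 3.90 to 5.63 CPM in control cells, with PTPRC at 0 in 8 of 9 libraries and CD3E at 0 in all. The NnK-1 sums of the immune list lay below the control sums. Of all genes 7.92% lay so in that comparison, and the sums were not tested. The oligodendrocyte gene MBP was read in every library, with MOG and MAG close to 0. NnK-1 replicate 2 stood apart along principal component 1 (52.1, with 19.7% of variance) and had the lowest VIM, at 3670 CPM, where the other 8 libraries lay between 5108 and 7267 CPM. CBRV1-10493 replicate 1 stood apart along component 2 (-44.9, with 14.7%).

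No member passed the test in any of the 3 comparisons. By edgeR's quasi-likelihood test the adjusted p of the 6 genes ran from 0.764 to 0.994 for NnK-1 against control, was 1.00 for each gene for CBRV1-10493 against control, and ran from 0.994 to 1.00 between the peptides. None of the 6 had an unadjusted p under 0.05 in any comparison. The libraries are bulk RNA, in which fewer cells expressing a gene and less of its RNA per cell cannot be told apart. Of all 13676 genes 0% passed in each comparison. At an unadjusted p under 0.05 it was 7.32% for NnK-1 against control, 2.89% for CBRV1-10493 against control and 4.31% between the peptides. For 4 of the 6 genes the intervals were narrower than for the others, and the intervals are given gene by gene. They bound a difference only as far as these samples vary, since no label names separate cultures.

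**Figure D1:**
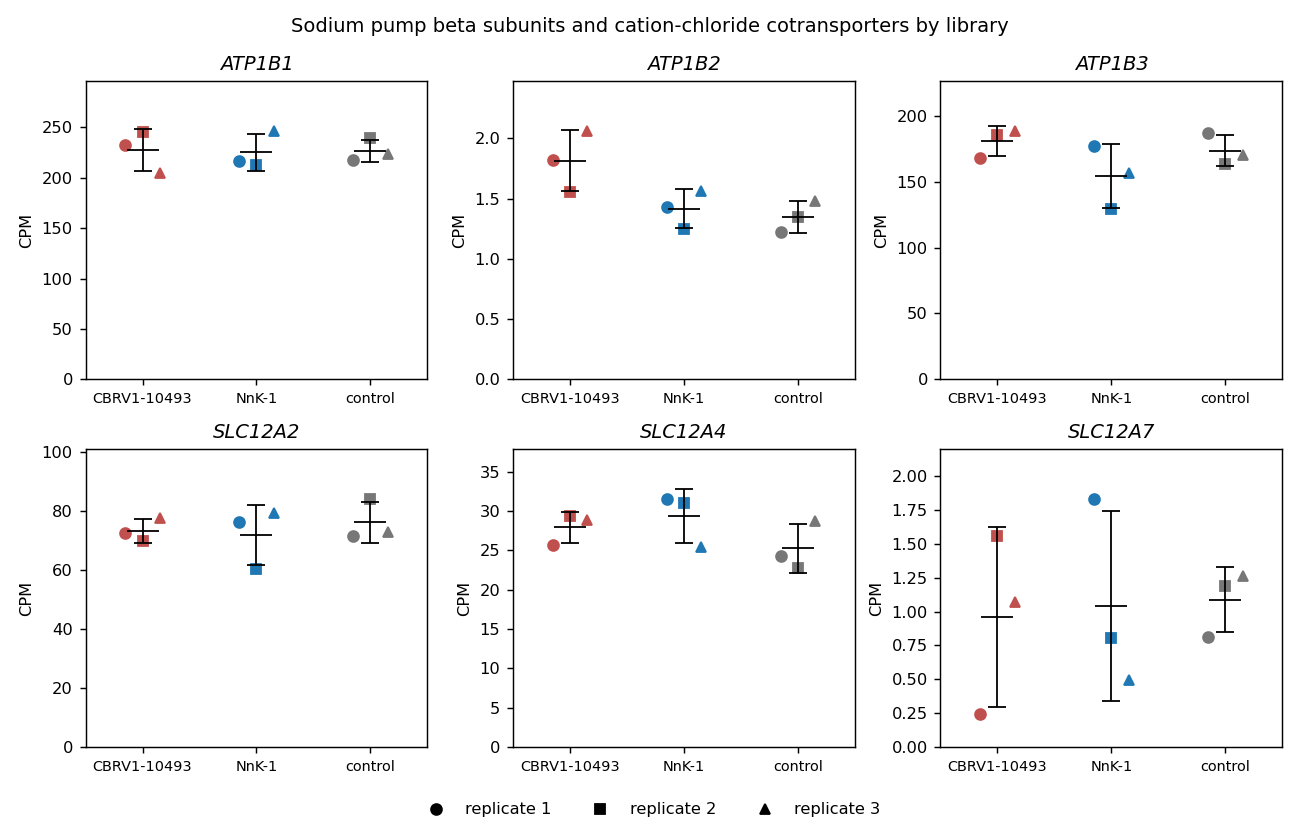
CPM of the 6 genes in each library (linear axes from 0), in cells given CBRV1-10493, cells given NnK-1 and untreated control cells; marker shapes give the replicate number, and black bars the mean ± SD of 3 libraries. The groups overlap for every gene except ATP1B2, where the 3 CBRV1-10493 libraries lie above the 3 control libraries, and NnK-1 replicate 2 is the lowest library for ATP1B3 and SLC12A2.

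ATP1B1, the beta 1 subunit, is the widely expressed partner of the pump's catalytic subunit. It stood at 233, 246 and 204 CPM in the CBRV1-10493 libraries, at 217, 213 and 247 CPM in the NnK-1 libraries and at 217, 239 and 224 CPM in the control libraries (replicates 1, 2 and 3). The highest and the lowest library both belonged to treated groups, and the control values lay inside the range of each. The group means were 228 ± 21.2 CPM with CBRV1-10493, 225 ± 18.4 CPM under NnK-1 and 227 ± 11.3 CPM in control cells (SD, n = 3 each), so no pair of neighbours in that order differed beyond its spread. The fitted log2 fold change was 0.02 for CBRV1-10493 against control (95% interval -0.19 to 0.23, 0.879-fold to 1.17-fold). For NnK-1 against control it was also 0.02 (interval -0.19 to 0.23, 0.878-fold to 1.17-fold). Over the 9 libraries ATP1B1 varied by a CV of 6.69%, where counting alone gives 1.89%.

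The end of ATP1B1 overlaps exons of NME7, which lies on the opposite strand (GENCODE 29), and neither the labels nor the files state how strand and overlaps were counted. Reads of the 2 genes may therefore be mixed. NME7 stood at 60.7 ± 8.76 CPM with CBRV1-10493, 56.3 ± 6.83 CPM under NnK-1 and 63.4 ± 4.16 CPM in control cells, and it did not pass the test in any comparison (edgeR, adjusted p from 0.839 to 1.00).

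ATP1B3, the beta 3 subunit, also carries the name CD298. It stood at 168, 186 and 189 CPM with CBRV1-10493, at 177, 129 and 157 CPM under NnK-1 and at 187, 164 and 171 CPM in control cells. NnK-1 replicates 2 and 3 were the 2 lowest of the 9 libraries, while NnK-1 replicate 1 lay among the control values. The means were 181 ± 11.1 CPM with CBRV1-10493, 154 ± 24.3 CPM under NnK-1 and 174 ± 11.9 CPM in control cells. The NnK-1 value was 0.904-fold of control (log2 fold change -0.15, interval -0.37 to 0.08, edgeR adjusted p = 0.801). Without NnK-1 replicate 2 the log2 fold change was -0.04. Without NnK-1 replicate 1 it was -0.24, with an interval below 0 (-0.47 to -0.02) and an adjusted p of 0.389 (edgeR). With CBRV1-10493 ATP1B3 was at 1.05-fold of control (log2 fold change 0.07, interval -0.15 to 0.30). That value was 0.12 without CBRV1-10493 replicate 1 and also 0.12 without control replicate 1.

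The gap between the peptides was widest for ATP1B3 among the 4 genes above 20 CPM. CBRV1-10493 libraries were higher than NnK-1 libraries in 8 of 9 pairs, with a log2 fold change of 0.22 (interval -0.0045 to 0.44). The unadjusted p was 0.0544 and the adjusted p was 0.994 by edgeR's quasi-likelihood test, and 646 of 13676 genes had a p this small or smaller. Without NnK-1 replicate 2 the log2 fold change was 0.12, and without NnK-1 replicate 1 it was 0.32 (interval 0.09 to 0.54, edgeR adjusted p = 0.447).

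ATP1B2, the beta 2 subunit, also known as the adhesion molecule on glia, is the beta subunit typical of astrocytes. It was near the edge of detection, with 22, 19 and 25 counts in the CBRV1-10493 libraries, 18, 14 and 19 counts in those given NnK-1 and 15, 17 and 20 counts in the control libraries. In CPM this was 1.81 ± 0.254 with CBRV1-10493, 1.42 ± 0.159 with NnK-1 and 1.35 ± 0.132 in control cells. Each CBRV1-10493 library lay above each control library in CPM, by 0.0735 CPM at the closest. Among all genes 3.91% showed such a separation upward in that comparison (8.88% in either direction), and the raw counts of the 2 groups overlapped. The log2 fold change was 0.43, but its interval ran from -0.73 to 1.60 (0.601-fold to 3.04-fold), and the adjusted p was 1.00 (edgeR). For NnK-1 against control it was 0.09 (interval -1.09 to 1.28). At this depth counting alone gives a CV of 23.1% for ATP1B2, and a 2-fold rise lay inside both intervals.

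Among the cotransporters, SLC12A2, the inward carrier NKCC1, stood at 72.5, 69.7 and 77.6 CPM with CBRV1-10493, at 76.2, 60.4 and 79.3 CPM under NnK-1 and at 71.4, 84.2 and 72.7 CPM in control cells. Control replicate 2 was the highest library and NnK-1 replicate 2 the lowest, and the groups overlapped. The means were 73.3 ± 3.997 CPM with CBRV1-10493, 72.0 ± 10.1 CPM under NnK-1 and 76.1 ± 7.02 CPM in control cells. Against control the log2 fold change was -0.04 for CBRV1-10493 (interval -0.29 to 0.21) and -0.06 for NnK-1 (interval -0.30 to 0.19). In fold terms the interval reached from 0.819 to 1.16 for CBRV1-10493 and from 0.810 to 1.14 for NnK-1. Without NnK-1 replicate 2 the NnK-1 value was 0.04, on the other side of 0.

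SLC12A4, the outward carrier KCC1 found in most cell types, had a higher mean with each peptide than in control cells. It stood at 25.6, 29.3 and 28.8 CPM with CBRV1-10493, at 31.6, 31.1 and 25.4 CPM under NnK-1 and at 24.3, 22.8 and 28.8 CPM in control cells. In each peptide group the libraries were higher than control in 8 of 9 pairs, and control replicate 3 was the control library that overlapped. The means were 27.9 ± 1.99 CPM with CBRV1-10493, 29.3 ± 3.42 CPM under NnK-1 and 25.3 ± 3.10 CPM in control cells. The log2 fold change against control was 0.16 for CBRV1-10493 (interval -0.17 to 0.48) and 0.24 for NnK-1 (interval -0.08 to 0.56, unadjusted p = 0.137, edgeR adjusted p = 0.764). Both comparisons share the same 3 control libraries. Without control replicate 3 the log2 fold change was 0.27 for CBRV1-10493 and 0.35 for NnK-1, and neither passed. Without control replicate 2, the lowest of the 9 libraries, it was 0.08 for CBRV1-10493 and 0.17 for NnK-1. SLC12A4 shares exon sequence with LCAT on the same strand (GENCODE 29), which stood at 1.59 ± 0.805 CPM with CBRV1-10493, 1.82 ± 0.742 CPM under NnK-1 and 2.22 ± 0.643 CPM in control cells.

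SLC12A7, the outward carrier KCC4, had few reads, with 3, 19 and 13 counts in the CBRV1-10493 libraries, 23, 9 and 6 counts in those given NnK-1 and 10, 15 and 17 counts in the control libraries. Both peptide groups spread on either side of the control values. The means were 0.959 ± 0.661 CPM with CBRV1-10493, 1.04 ± 0.701 CPM under NnK-1 and 1.09 ± 0.241 CPM in control cells. The within-group CV was 69.0% with CBRV1-10493, 67.1% with NnK-1 and 22.1% in control cells, beside about 28.0% from counting over the 9 libraries. The log2 fold change was -0.17 for CBRV1-10493 against control (interval -1.73 to 1.39) and -0.04 for NnK-1 against control (interval -1.59 to 1.52), so even a 2-fold change in either direction lay inside both intervals.

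**Figure D2:**
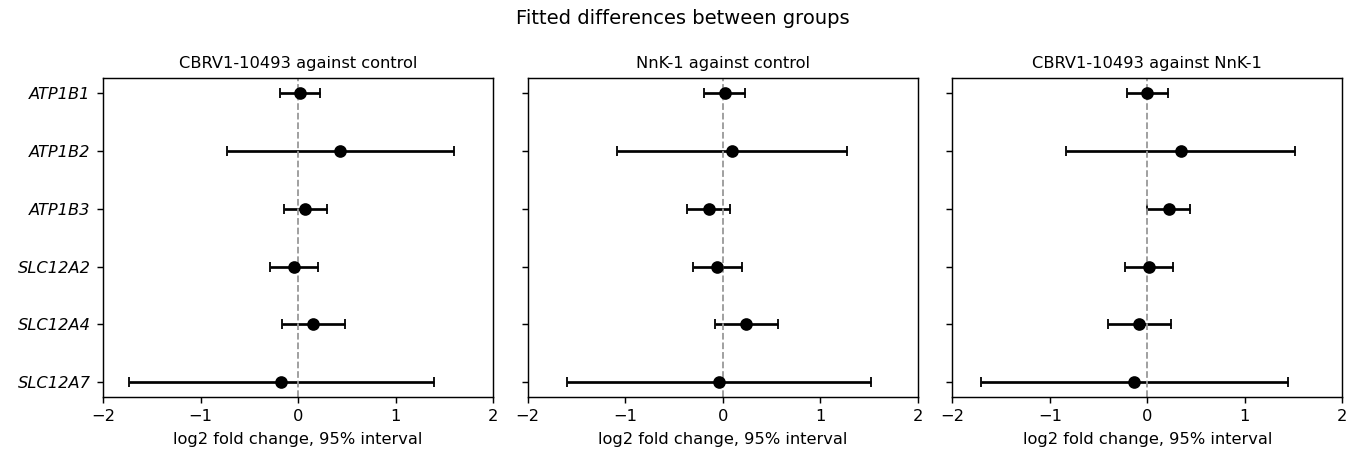
Fitted log2 fold change with its 95% interval (edgeR, 9 libraries) for the 6 genes in each of the 3 comparisons, with 0 as the dashed line. The intervals of ATP1B1, ATP1B3, SLC12A2 and SLC12A4 are narrow, those of ATP1B2 and SLC12A7 are wide, and every interval spans 0.

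The peptides were compared directly at the matched dose and time. For CBRV1-10493 against NnK-1 the log2 fold change was 0.00 for ATP1B1 (interval -0.20 to 0.21), 0.02 for SLC12A2 (interval -0.23 to 0.26) and -0.08 for SLC12A4 (interval -0.41 to 0.24). The SLC12A4 value was -0.03 without NnK-1 replicate 2 and also -0.03 without CBRV1-10493 replicate 1. For ATP1B2 it was 0.34 (interval -0.83 to 1.51) and for SLC12A7 -0.13 (interval -1.70 to 1.44). All 6 genes were compared between the peptides, with p adjusted over all 13676 genes, and no difference passed; this does not show that the peptides act alike.

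As a list, the 6 genes had 4 values above 0 and 2 below for CBRV1-10493 against control (median log2 fold change 0.05), and 3 above and 3 below for NnK-1 against control (median -0.01). Over all genes the medians were 0.00 in both comparisons, with 50.8% and 50.6% of genes above 0. The groups did not overlap for 1 of the 6 genes (ATP1B2) for CBRV1-10493 against control, where the background is 8.88%, for 0 of 6 for NnK-1 against control, where it is 13.0%, and for 0 of 6 between the peptides, where it is 8.88% (4.71% upward and 4.17% downward).

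Ratios within a library do not depend on its depth or on the scaling. The design text names a 3′ method, but the labels do not settle whether the counts grow with transcript length, and they were not divided by length. Each ratio is therefore set against itself across libraries, not read as a ratio of molecules. The log2 ratio of ATP1B1 to ATP1B3 counts was 0.47, 0.40 and 0.11 with CBRV1-10493, 0.29, 0.72 and 0.65 with NnK-1 and 0.22, 0.55 and 0.39 in control cells. NnK-1 replicates 2 and 3 had the highest ratios and NnK-1 replicate 1 lay inside the control range. ATP1B1 made up 55.4 ± 3.24% of the counts of the 3 beta subunits with CBRV1-10493, 59.2 ± 3.90% with NnK-1 and 56.4 ± 2.79% in control cells. The beta subunits together stood at 410.3 ± 20.2 CPM with CBRV1-10493, 381 ± 33.3 CPM under NnK-1 and 402 ± 5.20 CPM in control cells. In NnK-1 replicate 2 this sum was 343 CPM, and in the other 8 libraries it was between 395 and 433 CPM.

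The log2 ratio of SLC12A2 to SLC12A4 sets the inward against the outward carrier. It was 1.50, 1.25 and 1.43 with CBRV1-10493, 1.27, 0.96 and 1.64 with NnK-1 and 1.56, 1.88 and 1.34 in control cells. Control replicate 2 had the highest ratio and NnK-1 replicate 2 the lowest. The means were 1.39 ± 0.13 with CBRV1-10493, 1.29 ± 0.34 with NnK-1 and 1.59 ± 0.28 in control cells, and the groups overlapped. SLC12A7 made up 3.20 ± 2.07% of the counts of the 2 outward carriers with CBRV1-10493, 3.31 ± 1.91% with NnK-1 and 4.13 ± 0.867% in control cells.

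**Figure D3:**
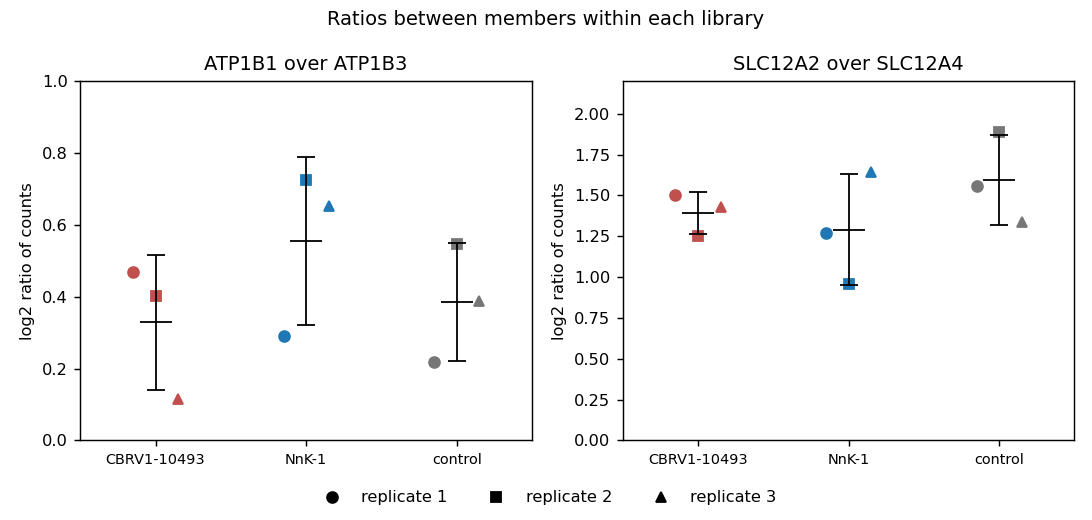
Log2 ratio of counts within each library for the beta subunits ATP1B1 and ATP1B3 (left) and the inward and outward carriers SLC12A2 and SLC12A4 (right), for CBRV1-10493, NnK-1 and control libraries; bars are the mean ± SD of 3 libraries. NnK-1 replicate 2 has the highest ATP1B1 to ATP1B3 ratio (0.72) and the lowest SLC12A2 to SLC12A4 ratio (0.96).

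The members did not share one pattern over the 9 libraries. Of the 15 pairs, SLC12A2 and SLC12A4 had the correlation of log2 CPM farthest from 0 (Pearson r -0.60, Spearman rho -0.60), and the other 14 lay between -0.32 and 0.38 by Pearson's r. These values are descriptions over 9 libraries that share groups and scaling. For members above 5 CPM, the 2 most like genes were sought among 7103 others at 20 CPM or more. Each r below is picked as highest of 7103 over 9 libraries. No background for such maxima was computed, nor r without NnK-1 replicate 2. For ATP1B1 they were ATP2B1, a plasma membrane calcium pump (r 0.93), and LAMB2, a laminin chain (r 0.92). For ATP1B3 they were GNAS, a stimulatory G protein subunit, and MUS81, a DNA endonuclease subunit (r 0.95 each). For SLC12A2 they were AFAP1, an actin filament-associated protein (r 0.93), and MED13L, a Mediator subunit (r 0.92), and for SLC12A4 CLN3, a lysosomal membrane protein (r 0.92), and SEPT2, a septin (r 0.90). ATP1B3 had 19 genes with r over 0.9, and the other 3 members above 5 CPM had 2 or 3 each.

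The wider pathway was read from 5 lists with 72 genes, of which 43 were tested and 0 passed in each comparison (edgeR, 0% of all genes). At an unadjusted p under 0.05 there were 2 of 43 for NnK-1 against control, 2 of 43 for CBRV1-10493 against control and 0 of 43 between the peptides, beside 7.32%, 2.89% and 4.31% of all genes. The median log2 fold change of the 43 was 0.03 for CBRV1-10493 and -0.01 for NnK-1 against control.

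Of 19 other pump subunits and pump partners 3 were tested, and 5 had no read at all. FXYD5, a small regulator of the pump also named dysadherin, stood at 46.2 ± 7.23 CPM with CBRV1-10493, 47.5 ± 9.85 CPM under NnK-1 and 51.3 ± 7.11 CPM in control cells. NKAIN3, a membrane protein that interacts with the pump, stood at 16.9 ± 7.45 CPM with CBRV1-10493, 13.9 ± 5.19 CPM under NnK-1 and 16.9 ± 3.51 CPM in control cells. Neither gene's groups were apart.

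Of 6 other SLC12 genes 3 were tested, and all 3 had log2 fold changes above 0 for both peptides against control, none passing. SLC12A8, a family member tied to polyamine and nicotinamide mononucleotide transport, had 62, 75 and 44 counts with CBRV1-10493, 55, 72 and 115 counts with NnK-1 and 62, 39 and 53 counts in control cells. Its log2 fold change for NnK-1 against control was 0.78 (interval 0.05 to 1.51, unadjusted p = 0.0383, edgeR adjusted p = 0.672), and NnK-1 replicate 1 lay within the control counts. Without NnK-1 replicate 2 it was 0.80 and without NnK-1 replicate 3 it was 0.46, and each interval spanned 0. The interval also spanned 0 without control replicate 2 and without control replicate 3. It lay above 0 without NnK-1 replicate 1 (1.02, interval 0.28 to 1.76, edgeR adjusted p = 0.271). The same held without control replicate 1 (0.96, interval 0.12 to 1.80, edgeR adjusted p = 0.922). SLC12A9, the cotransporter-interacting protein, was at 37.6 ± 5.60 CPM with CBRV1-10493, 38.3 ± 3.34 CPM under NnK-1 and 37.8 ± 1.56 CPM in control cells.

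The WNK kinases and their partners SPAK and OSR1 phosphorylate these cotransporters, which turns NKCC1 on and the KCCs off. Of 17 genes of that pathway 16 were tested, with 8 above 0 for CBRV1-10493 and 6 above 0 for NnK-1 against control. CAB39L, a scaffold of these kinases, stood at 6.42 ± 2.41 CPM with CBRV1-10493, 5.52 ± 1.55 CPM with NnK-1 and 8.73 ± 2.26 CPM in controls (log2 fold change -0.64 for NnK-1, interval -1.32 to 0.05). Without NnK-1 replicate 2 the CAB39L value was -0.83 (interval -1.59 to -0.07, edgeR adjusted p = 0.913), and without control replicate 3 it was -0.40. SGK1, a kinase induced by volume and salt stress that acts on sodium transport, averaged 21.1 ± 1.99 CPM under NnK-1, against 25.6 ± 2.44 CPM in controls (log2 fold change -0.25, interval -0.58 to 0.08). For CAB39L and SGK1 the NnK-1 libraries lay below the control libraries in CPM, as for 7.92% of all genes. For SGK1 the closest libraries were nearly level, with NnK-1 replicate 3 at 22.76 CPM and control replicate 2 at 22.79 CPM. NEDD4L, a ubiquitin ligase of sodium channels, averaged 14.4 ± 1.13 CPM under CBRV1-10493, against 17.8 ± 0.385 CPM in controls (log2 fold change -0.29, interval -0.65 to 0.08), without overlap, as for 4.96% of all genes.

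Of 18 genes of sodium-proton and bicarbonate exchange 12 were tested. SLC9A8, an exchanger of the Golgi, averaged 10.8 ± 2.38 CPM under CBRV1-10493, against 15.6 ± 0.540 CPM in controls (log2 fold change -0.51, interval -0.94 to -0.09, unadjusted p = 0.0214, edgeR adjusted p = 1.00). Without CBRV1-10493 replicate 1 it was -0.47 and without CBRV1-10493 replicate 2 it was -0.39, and each interval spanned 0. The interval stayed below 0 without CBRV1-10493 replicate 3 (-0.70, interval -1.17 to -0.23) and without any single control library. SLC9A8 passed in none of these. Its CBRV1-10493 libraries lay below the control libraries, as for 4.96% of all genes.

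Of 12 genes of the tonicity response and osmolyte transport 9 were tested. AQP11, an intracellular aquaporin, had 47, 47 and 33 counts with CBRV1-10493, 37, 28 and 35 counts with NnK-1 and 25, 24 and 21 counts in control cells, so that every peptide library lay above every control library, as for 3.91% of all genes with CBRV1-10493 and 5.08% with NnK-1. Its log2 fold change was 0.94 for CBRV1-10493 (interval 0.05 to 1.83, unadjusted p = 0.0390, edgeR adjusted p = 1.00) and 0.63 for NnK-1 (interval -0.27 to 1.52, edgeR adjusted p = 0.781), with the same control libraries in both. Without CBRV1-10493 replicate 1 the CBRV1-10493 value was 0.85 (interval -0.16 to 1.86). It was 1.09 (interval 0.09 to 2.10) without CBRV1-10493 replicate 3, did not pass, and had an interval spanning 0 without any other single library. AQP1, a water channel of the plasma membrane, stood at 13.4 ± 3.89 CPM with CBRV1-10493, 13.7 ± 4.75 CPM under NnK-1 and 10.7 ± 0.767 CPM in control cells. AKR1B1, aldose reductase, which makes the osmolyte sorbitol, averaged 312 ± 13.9 CPM under CBRV1-10493, against 293 ± 13.9 CPM in controls (log2 fold change 0.10, interval -0.08 to 0.29). SLC38A2, an amino acid carrier, averaged 239 ± 18.8 CPM under NnK-1, against 223 ± 27.2 CPM in controls (log2 fold change 0.13).

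**Figure D4:**
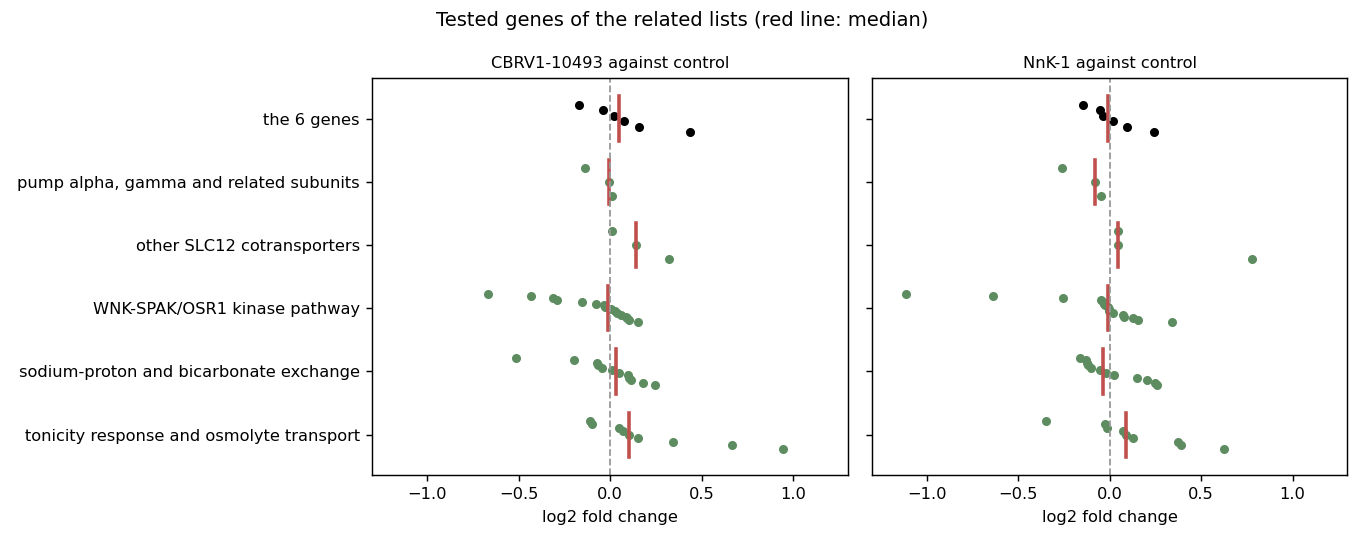
Log2 fold change against control of the 6 genes (black) and of every tested gene of the 5 related lists (green), for CBRV1-10493 (left) and NnK-1 (right); red lines are medians. The medians lie near 0, and no gene shown passed the test.

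Leaving out single libraries moved the 6 genes by amounts like those between groups. For ATP1B3 the NnK-1 value ran from -0.24 to -0.04 and kept its sign, and for SLC12A4 it ran from 0.17 to 0.35 and kept its sign. ATP1B1, SLC12A2 and SLC12A7 took both signs against control for each peptide. ATP1B2 stayed above 0, from 0.34 to 0.53 for CBRV1-10493 and from 0.02 to 0.17 for NnK-1.

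**Figure D5:**
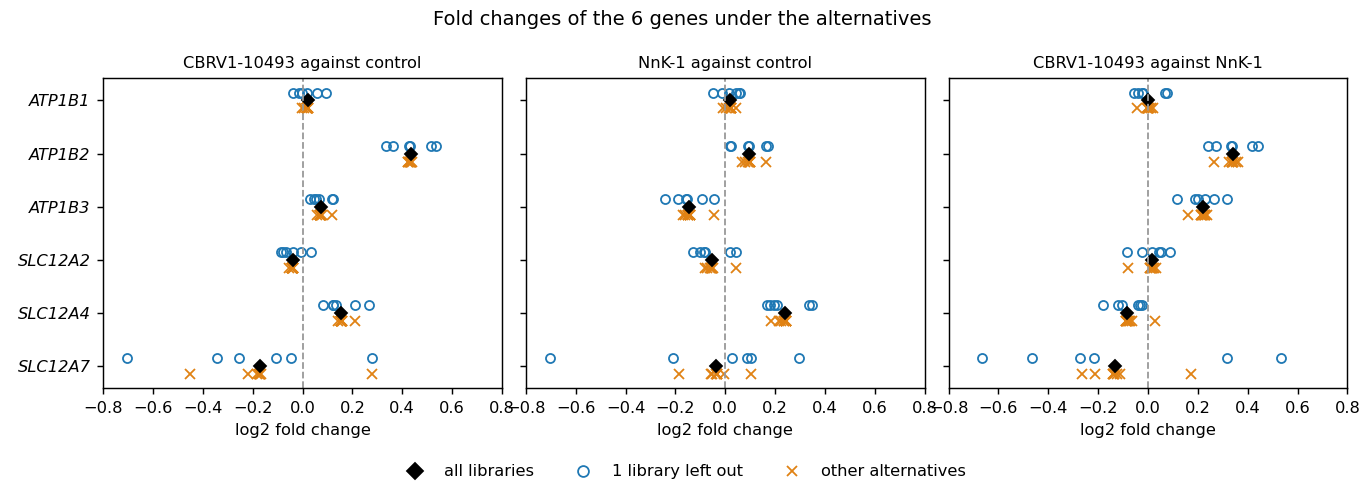
Log2 fold change of the 6 genes with all libraries (black diamonds), with 1 library left out (blue circles) and under the other alternatives (orange crosses), in each comparison. ATP1B2, ATP1B3 and SLC12A4 stay on one side of 0 against control, and ATP1B1, SLC12A2 and SLC12A7 do not.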

How the data were processed

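RNA of 9 U-373MG libraries was measured, 3 per group, with groups taken from the titles. Per the labels, libraries were made with a Lexogen kit; the design text names a 3′ method and single-end reads. The submitters' processing notes name Bowtie2, bedtools and build hg19; versions, annotation, strand and counting options are not given there. The deposited files hold raw read counts for each gene symbol, unscaled. Symbols on several entries (286, on 1561 entries) were summed. CPM is the count over the library total (11203094 to 13491075).

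Genes were kept by filterByExpr (minimum count 10, minimum total 15), scaled by TMM and fitted with edgeR 4.0.16: quasi-likelihood, 9 libraries, a coefficient per group, two-sided, Benjamini-Hochberg over 13676 genes, threshold 0.05. The fit was also run on counts simulated from its own estimates of spread. Such counts hold no libraries that stand apart, so they cannot test how the fit treats those. Alternatives were other scalings and filters, 6 libraries, a replicate block, DESeq2 1.42.0, limma-voom 3.58.1, a threshold of 0.1 and libraries left out (for list genes chosen after seeing the data). Named were all members, the 3 genes of smallest p per list and peptide (some are not reported here) and the 2 genes most like each member above 5 CPM. Members and lists were chosen with earlier results of these data known. Every library pair differed beyond sampling noise (chi-square per degree of freedom at least 6.07). No label names separate cultures, so the p-values speak only of how these samples vary, which may be technical.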

Additional observations from a re-analysis of the deposited data

How the results depend on the processing

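Of 282 fold changes of the 6 genes recomputed under the alternatives, 248 kept their direction, 34 changed sign and 0 passed the threshold (lowest adjusted p 0.389). With all 9 libraries and the settings of the report the interval spanned 0 for all 18 values. It excluded 0 in 6 recomputed values, all of ATP1B3: between the peptides with upper-quartile factors (0.01 to 0.46), with no filter (0.0024 to 0.43), with the replicate block (0.0019 to 0.45), without NnK-1 replicate 1 (0.09 to 0.54) and without CBRV1-10493 replicate 1 (0.02 to 0.51), and for NnK-1 against control without NnK-1 replicate 1 (-0.47 to -0.02). The cause of the changes of sign was not tested. In no alternative did a gene of the 5 related lists pass. With no filter on low counts 74 genes passed for NnK-1 against control (27 higher, 47 lower), 6 for CBRV1-10493 against control and 1 between the peptides, and DESeq2 passed 3 for NnK-1 against control.

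The ATP1B1 value was -0.0076 for NnK-1 against control with library totals alone. Between the peptides it was -0.0039 with DESeq2's size factors, -0.0039 by DESeq2's own test, -0.00095 with no filter and -1.7e-05 by limma-voom. Without both NnK-1 replicate 2 and CBRV1-10493 replicate 1, ATP1B1 was at -0.00067 for CBRV1-10493 against control and -0.045 between the peptides. In that setting SLC12A2 was at 0.043 for NnK-1 against control and -0.081 between the peptides, SLC12A4 at 0.027 between the peptides, and SLC12A7 at 0.28 for CBRV1-10493 against control, 0.10 for NnK-1 against control and 0.17 between the peptides.

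With 1 library left out, ATP1B1 ran from -0.037 to 0.095 for CBRV1-10493 against control, from -0.049 to 0.058 for NnK-1 against control and from -0.056 to 0.076 between the peptides. SLC12A2 ran from -0.088 to 0.035 for CBRV1-10493, from -0.13 to 0.042 for NnK-1 and from -0.083 to 0.090 between the peptides. SLC12A7 ran from -0.70 to 0.28 for CBRV1-10493, from -0.70 to 0.30 for NnK-1 and from -0.66 to 0.53 between the peptides. ATP1B2 and SLC12A7 could not be fitted where 5 CPM was required in 3 libraries.

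Replicate numbers gave little sign of pairing the libraries. Of 9 same-numbered pairs, 1 had deviations correlated above 0.1 (range -0.057 to 0.13, beside -0.093 to 0.097 for other pairs). For 1 of 9 libraries, both same-numbered libraries of the other groups correlated with it more than every differently numbered one. With the replicate block 0 genes passed in each comparison and no call changed; SLC12A4 was at 0.24 for NnK-1 against control and ATP1B3 at 0.23 between the peptides.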
